A study of Mus musculus with 16 samples.

Results

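Short H3K4me3 peaks that lay at promoters and were present at both ages of hematopoietic stem cells (HSCs) were examined. A peak of the young HSC list was chosen by 4 criteria: it lay on chromosomes 1 to 19, a protein-coding transcript started within 1 kb of it, it overlapped a peak of the aged HSC list by at least 1 bp, and it did not belong to a long region, where young peaks within 1 kb of each other joined to 1500 bp or more. Of 11377 young H3K4me3 peaks, 2633 met the rule. Presence in both lists, position and region length therefore chose these peaks, and their values in the 2 lists are given as a description, without a test. The other young peaks on chromosomes 1 to 19 were 5210 short promoter peaks found only in the young list, 1075 promoter peaks of long regions and 2361 peaks away from promoters.

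The study compared HSCs from pooled bone marrow of female C57BL/6 mice at 10 weeks (young) and 20 months of age (aged) by chromatin immunoprecipitation sequencing (ChIP-seq) of H3K4me3, H3K27me3 and H2AK119ub1. HSCs were sorted as cells positive for Sca-1, c-kit and CD150 and negative for Lin, IL-7Rα, CD34, CD48 and Flt3. This is a surface gate rather than a functional test, and the labels name no transgene or treatment for either group. The labels list 16 libraries, 2 for each mark and for the input at each age, but the peaks were deposited as 1 pooled list per mark and age. No replicate value exists for any peak, so no difference between the ages was tested, and every interval below covers counting error over peaks, genes or reads only. The depth of the libraries is not given by the lists. As a stand-in, the smallest background of any H3K4me3 peak was 3.70 reads for young and 3.52 reads for aged HSCs. The young list was longer (11377 against 6724 peaks).

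H3K4me3 is placed on nucleosomes at promoters by the SET1 and MLL family of methyltransferases, whose complexes are drawn to unmethylated CpG-rich DNA, and it is found at most transcribed genes. The nucleosome that follows the start site usually carries the mark most strongly, while the start site itself is kept free of nucleosomes. Broad stretches of H3K4me3 are known from genes of cell identity, whereas housekeeping genes usually carry a short stretch, and genes held silent by the Polycomb complexes can carry H3K4me3 together with H3K27me3.

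The DNA under the summits is shown for 8 peaks to make the CpG content described below visible. They comprise 2 of the peaks ranked highest in the young list, 2 of those ranked highest in the aged list, the peaks with the highest and the second lowest ratio of aged to young enrichment, and 2 peaks that also carried H3K27me3 at both ages. Each sequence covers 150 bases of the mm10 assembly around the young summit, 5′ to 3′ on the strand of the nearest gene, and capitals mark every CpG dinucleotide.
Mvd, chr8:122443912-122444061, minus strand: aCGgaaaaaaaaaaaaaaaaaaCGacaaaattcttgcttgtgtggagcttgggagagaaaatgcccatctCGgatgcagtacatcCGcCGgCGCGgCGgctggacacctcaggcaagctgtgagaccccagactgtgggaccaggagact
Cep55, chr19:38054541-38054690, plus strand: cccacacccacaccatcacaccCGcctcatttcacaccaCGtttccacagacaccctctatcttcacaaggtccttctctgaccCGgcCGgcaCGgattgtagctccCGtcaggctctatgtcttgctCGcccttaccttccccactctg
Cops3, chr11:59839589-59839738, minus strand: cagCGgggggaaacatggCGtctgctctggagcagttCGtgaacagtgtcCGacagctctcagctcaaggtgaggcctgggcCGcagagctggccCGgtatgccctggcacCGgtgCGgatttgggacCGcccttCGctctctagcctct
Cdadc1, chr14:59598025-59598174, minus strand: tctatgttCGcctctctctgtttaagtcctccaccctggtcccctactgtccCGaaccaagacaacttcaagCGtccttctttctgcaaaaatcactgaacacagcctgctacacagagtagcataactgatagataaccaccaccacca
Usp1, chr4:98922956-98923105, plus strand: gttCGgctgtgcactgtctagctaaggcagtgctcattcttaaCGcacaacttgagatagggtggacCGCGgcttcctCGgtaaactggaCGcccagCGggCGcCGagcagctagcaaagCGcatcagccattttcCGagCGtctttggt
Dnajc14, chr10:128805145-128805294, plus strand: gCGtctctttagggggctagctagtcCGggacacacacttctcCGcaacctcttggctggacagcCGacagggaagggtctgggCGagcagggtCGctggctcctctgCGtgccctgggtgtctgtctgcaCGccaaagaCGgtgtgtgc
Hey2, chr10:30842501-30842650, minus strand: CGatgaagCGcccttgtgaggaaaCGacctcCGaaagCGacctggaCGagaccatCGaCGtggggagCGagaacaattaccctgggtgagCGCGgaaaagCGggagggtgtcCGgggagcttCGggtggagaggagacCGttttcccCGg
Chrm2, chr6:36388346-36388495, plus strand: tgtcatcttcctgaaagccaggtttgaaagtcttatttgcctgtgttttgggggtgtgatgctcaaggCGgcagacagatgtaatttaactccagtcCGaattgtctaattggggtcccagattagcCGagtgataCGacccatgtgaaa
The number of CpGs in these windows ranged from 3 at Cdadc1 to 16 at Hey2, and the GC content from 46.0% at Chrm2 to 64.7% at Cops3. The summits of Mvd, Cops3 and Chrm2 lay in introns, that of Hey2 lay in a coding exon, and those of Cep55, Cdadc1, Usp1 and Dnajc14 lay outside annotated coding transcripts.

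Genes of the HSC gate and of other blood cells were used to check the label of the cells by H3K4me3. Of 17 genes of HSC surface and identity, 5 had a short promoter peak at both ages, among them Eng, Procr, Ptprc and Tek, and Esam and Fgd5 had promoter peaks at both ages outside the rule. For comparison, 13.3% of all autosomal protein-coding genes had such a peak. Abcg2 and Hoxb5 had a promoter peak only in the young list, and Kit, Ctnnal1 and Pdzk1ip1 only in the aged list. The remaining 5, which include the gate markers Ly6a (Sca-1) and Slamf1 (CD150) besides Itga2b, Thy1 and Vwf, had no promoter peak in either list, so H3K4me3 in these lists marked the gate only in part. None of the 8 T cell markers had a promoter peak in either list, and of the 10 granulocyte and monocyte markers only Csf3r had one. Of the 8 B cell markers, Ebf1 had a short peak at both ages, which overlapped H3K27me3 at both ages, and 6 had no peak. Of the 9 autosomal erythroid and megakaryocyte markers, 6 had no peak and 3 had a peak only in the young list. Of the 4 genes expected to be low in the gate (Cd34, Flt3, Cd48 and Il7r), all but Cd34 had no peak in either list, and Cd34 had a peak only in the young list.

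The enrichment of the shared short promoter peaks was modest in both lists. The fold enrichment over the local background at the summit had a median of 4.23 (95% interval 4.18 to 4.25, n = 2633) in the young list, with quartiles of 3.61 and 4.68, and a median of 4.20 (4.20 to 4.29) in the aged list. The median −log10 q-value, the peak caller's significance score, was 4.96 in young and 4.71 in aged HSCs. At the summit the median number of reads was 21 for young and 20 (95% interval 19 to 20) for aged HSCs, over median backgrounds of 3.96 and 3.52 reads. The peaks had a median width of 332 bp (326 to 341) in the young list and 297 bp (291 to 304) in the aged list, and 1541 of 2633 were narrower in aged HSCs.

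Short promoter peaks found only in the young list had a lower median fold (4.04) and a smaller median width (279 bp). The share of short promoter peaks that reappeared in the aged list was 30.2% (95% interval 27.5 to 32.9) among 1091 young peaks with a −log10 q below 3 and 47.3% (39.0 to 55.8) among 131 peaks with a −log10 q of 10 or more. Of the 2633 peaks, 2550 overlapped 1 aged peak, 82 overlapped 2 and 1 overlapped 3. The summits of the overlapping peaks lay a median of 85 bp apart, and 1454 pairs (55.2%) lay within 100 bp.

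The ratio of aged to young fold enrichment had a median of 1.03 (95% interval 1.00 to 1.04), and 90% of the peaks had a ratio between 0.667 and 1.61. The fold was higher in the aged list at 1379 peaks and lower at 1254. The direction of this small difference depended on the quantity and on the peaks kept. Reads at the summit contain the background and were not scaled for depth. By these reads, 792 peaks had more in aged HSCs, 1569 had fewer and 272 had the same number. The smallest background, the stand-in for depth, was 3.70 reads for young and 3.52 reads for aged HSCs. The young list was also cut to the length of the aged list by keeping its peaks with the highest −log10 q, and the median ratio was then 0.936. This cut picked peaks for their young values, so the lower ratio is no measure of a difference between the ages. The exact Poisson 95% intervals of the reads overlapped between the ages at all 2633 peaks. These peaks had to be called in both lists and had medians of only 21 and 20 reads, which give wide intervals. Their overlap is therefore no measure of an unchanged signal. Across the 2633 peaks, which share their libraries and were all selected as peaks in both lists, Pearson's r between the log2 folds was 0.035 and Spearman's rho was 0.044.

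**Figure D1:**
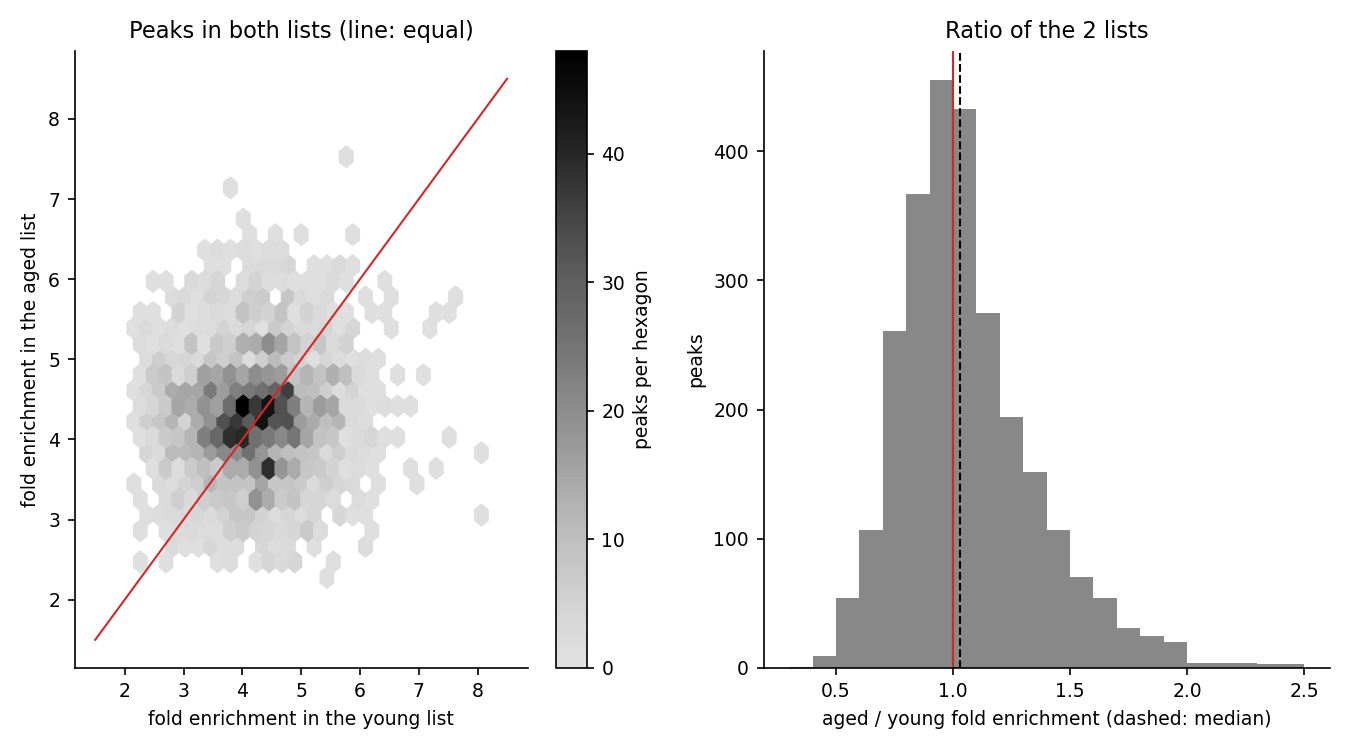
Fold enrichment of the 2633 short promoter peaks present at both ages. Left, young list (x axis) against aged list (y axis), with shading for the number of peaks per hexagon and a line of equal values. Right, the number of peaks by ratio of aged to young fold, with a solid line at 1 and a dashed line at the median of 1.03. The peaks form a round cloud centred on the medians of 4.23 and 4.20, without a trend along the line.

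The shared peaks ranked highest by −log10 q in the young list had lower values in the aged list. They were picked for their young values, so the lower aged values are no measure of a difference between the ages. At Mvd, which encodes an enzyme of the mevalonate pathway of cholesterol synthesis, the fold was 8.08 in young HSCs (37 reads at the summit, 95% Poisson interval 26.1 to 51.0) and 3.91 in aged HSCs (19 reads, 11.4 to 29.7). At Klhl18, which encodes an adaptor of a CUL3 ubiquitin ligase and shares its promoter with Kif9, it was 8.08 (37 reads) and 3.14 (27 reads, 17.8 to 39.3). At Cep55, needed for the last step of cell division, the young peak held 38 reads (7.28-fold) and the aged peak 31 reads (5.57-fold). The other 7 of the 10 were at Rnf213, a large ubiquitin ligase, Cript, Ppm1l, a protein phosphatase, Smim11, Cic, the transcriptional repressor Capicua, Cep162, a centriole protein, and Fis1, a factor of mitochondrial fission. Their young folds ranged from 7.02 (Fis1) to 7.65 (Rnf213) and their aged folds from 3.48 (Fis1) to 5.75 (Rnf213).

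The peaks ranked highest in the aged list likewise had lower values in the list that did not rank them. Cops3, which encodes a subunit of the COP9 signalosome, had a fold of 5.74 (26 reads, 17.0 to 38.1) in young and 7.52 (33 reads, 22.7 to 46.3) in aged HSCs. Tmem115, a Golgi membrane protein, had 3.83 (18 reads) and 7.07 (31 reads), and Alg14, an enzyme of N-glycan assembly, had the most aged reads of these 10 (38 reads, 26.9 to 52.2) after 33 reads in young HSCs. The others were at Cdadc1, Cbll1, Slc25a25, a mitochondrial carrier, Adar, the RNA adenosine deaminase, Clasp1, which binds microtubule ends, Myh10, a nonmuscle myosin, and 5730480H06Rik, with aged folds from 5.92 (Myh10) to 6.67 (Cdadc1) and young folds from 3.31 (Myh10) to 5.95 (Cbll1). No gene was among the 10 highest in both lists.

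**Figure D2:**
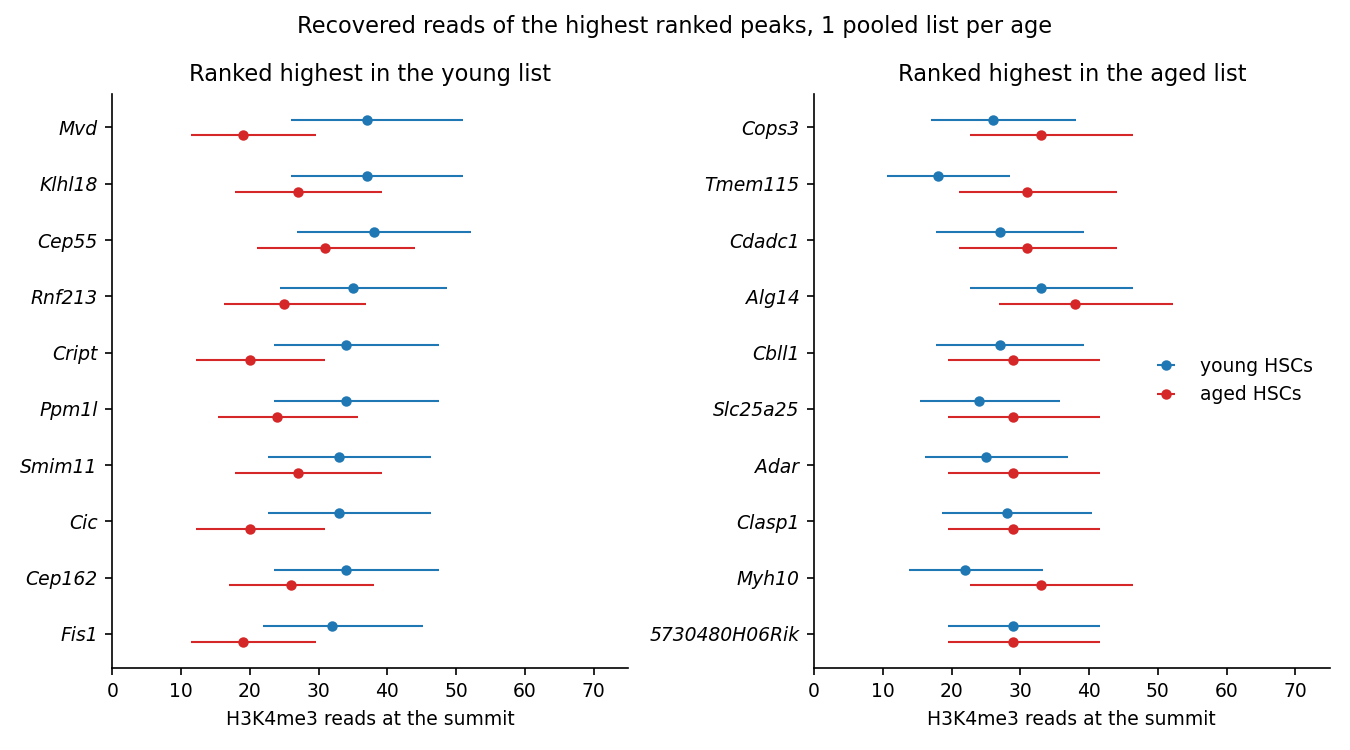
Reads at the H3K4me3 summit (x axis) of the 10 shared short promoter peaks ranked highest in the young list (left) and in the aged list (right), with young HSCs in blue, aged HSCs in red and bars for exact Poisson 95% intervals. The values of each pair overlap in their intervals, and the ranked list holds the higher or an equal value at every gene.

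At the extremes of the ratio, the local background differed between the lists. The peaks with the highest ratios lay at Usp1 (ratio 2.42), which encodes a deubiquitinase of the Fanconi pathway, Zfp773 (2.41), Spag6l (2.41), Pus10 (2.36), a pseudouridine synthase, and Katna1 (2.32), which encodes the microtubule-severing katanin. At Zfp773 the summit held 24 reads at both ages, while the background was 9.90 reads (young) and 3.52 reads (aged). At Usp1 the reads were 21 and 26 and the background was 7.92 and 3.52 reads. The lowest ratios were found at Klhl18 (0.389), Dnajc14 (0.411), Mrpl55 (0.419), a mitochondrial ribosomal protein, Dhx36 (0.437), a G-quadruplex helicase, and Pcca (0.441), a subunit of propionyl-CoA carboxylase. Dnajc14 had 26 reads at both ages, and its background was 3.96 reads (young) and 11.1 reads (aged). At Klhl18, where the reads differed as well, the background was 3.70 and 7.91 reads. The part of the background in these ratios was not tested. In all, 1640 of 2633 peaks had a ratio from 0.8 to 1.25, 218 had a ratio above 1.5 and 128 a ratio below the inverse of 1.5.

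The values on either side of the limit of 1500 bp were as follows. The peaks just inside it belonged to regions of 1497 bp at Lig3, a DNA ligase (young fold 5.31, aged fold 3.54), and of 1496 bp at Slc43a2 (4.89 and 4.64) and Ppp2r1a, the scaffold subunit of PP2A (3.46 and 5.53). Just outside it were a pair of peaks in a region of 1501 bp at Slc43a1 (4.01 and 4.20 for the stronger peak) and a peak in a region of 1502 bp at Cdk12 (4.40 and 5.08). In the 100 bp below the limit lay 94 peaks of the set, and in the 100 bp above it 78 peaks shared by both ages were left out.

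The summits lay mostly downstream of the start site. In 75.3% (95% interval 73.6 to 76.9) of the peaks the young summit was on the gene side of the nearest coding start site, against 71.2% (69.9 to 72.4) of young-only short promoter peaks, 69.2% (67.3 to 71.0) of promoter peaks found only in the aged list and 64.4% (61.5 to 67.2) of promoter peaks of long regions. The aged summit, whose side the rule did not use either, was downstream in 75.2% (73.5 to 76.8), and both summits lay on the same side in all but 117 peaks (4.44%). At promoters with start sites on 1 strand only, the most populated interval was 100 to 200 bp into the gene, with 16.3% of the peaks. A smaller group of summits lay 200 to 300 bp upstream (5.34%), and only 2.80% lay in the last 100 bp before the start site. The start site itself was inside the peak in 490 cases (18.6%).

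**Figure D3:**
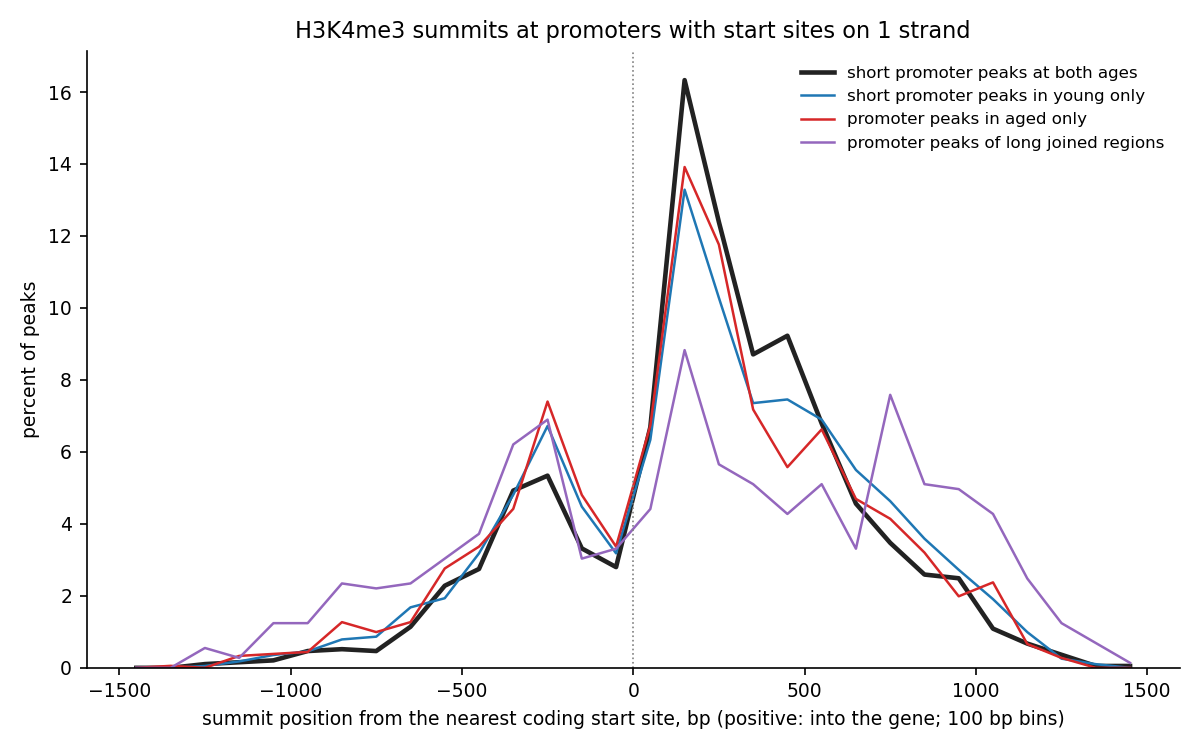
Position of H3K4me3 summits relative to the nearest coding start site (x axis, bp, positive into the gene, bins of 100 bp) as percent of peaks (y axis), for the 4 classes of promoter peaks at promoters with start sites on 1 strand. All classes have a dip in the 200 bp before the start site and a maximum 100 to 200 bp after it, which reaches 16.3% for short promoter peaks present at both ages.

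At the young summit, 1475 peaks (56.0%, 95% interval 54.1 to 57.9) lay in an intron of a coding transcript, 429 (16.3%) in a UTR exon, 244 (9.27%) in a coding exon and 485 (18.4%) outside coding transcripts. Of the 2633 peaks, 1579 stood alone in their region, 919 lay in regions of 2 young peaks and 135 in regions of 3 or 4. In 181 regions both of 2 young peaks were shared with aged HSCs, and a coding start site lay between their summits in 61.3% (54.1 to 68.1), with a median of 529 bp (496 to 576) between the summits. In 557 regions only 1 of the 2 peaks reappeared in the aged list, and a start site lay between the summits in 65.4% (61.3 to 69.2). Where neither reappeared, the share was 55.3% (51.5 to 59.0) of 671 regions.

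The DNA around the summits was rich in CpG. In the 300 bp around the summit the ratio of CpG observed over expected had a median of 0.651 (95% interval 0.641 to 0.660), compared with 0.631 (0.623 to 0.640) in young-only short promoter peaks, 0.658 (0.649 to 0.671) in aged-only promoter peaks, 0.611 (0.589 to 0.630) in promoter peaks of long regions and 0.627 (0.620 to 0.634) in windows of the same size at all autosomal coding start sites. The ratio was 0.6 or more in 58.8% (56.9 to 60.7) of the peaks, in 59.3% (57.3 to 61.2) of aged-only promoter peaks and in 51.8% (51.3 to 52.3) of the start sites. The spread was narrower than at start sites, with quartiles of 0.501 and 0.782 against 0.246 and 0.874. Median GC content was 57.3% (57.0 to 58.0), while young-only peaks had 56.7% (56.3 to 57.3) and aged-only promoter peaks had 59.0% (58.3 to 59.3). It was lower in promoter peaks of long regions (54.7%, 54.0 to 55.7) and higher in the start-site windows (59.3%, 59.3 to 59.7).

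Motifs of promoter factors were counted on both strands in the same 300 bp windows. The TATA box (TATAAA) was found in 5.24% (95% interval 4.45 to 6.16) of the peaks, in 7.14% (6.47 to 7.87) of young-only short promoter peaks, in 5.35% (4.52 to 6.33) of aged-only promoter peaks, in 8.37% (6.86 to 10.2) of promoter peaks of long regions and in 9.70% (9.41 to 10.0) of start-site windows. The ETS core (CCGGAA) was found in 17.4% (16.03 to 18.9) of the peaks, close to young-only peaks (16.03%, 15.1 to 17.05), aged-only peaks (15.6%, 14.2 to 17.1) and start-site windows (18.7%, 18.3 to 19.1), and in 13.0% (11.1 to 15.2) of peaks of long regions. The GGGCGG element bound by Sp and KLF factors occurred in 34.4% (32.7 to 36.3) and the CCAAT element of NF-Y in 25.2% (23.6 to 26.9), against 47.2% and 33.8% of start-site windows, which lie nearer to the start site than most summits. The remaining motifs were rare, namely the E-box (CACGTG) in 5.09%, the YY1 core (GATGGCGG) in 2.32%, the CRE (TGACGTCA) in 0.836%, the NRF1 core (CGCATGCG) in 0.570% and the ZBTB33 core (CTCGCGAG) in 0.342% of the peaks, compared with 6.99%, 3.15%, 2.11%, 2.09% and 1.12% of start-site windows. The motifs do not contain each other, and a match describes the letters only.

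Start sites of coding genes on both strands, as at divergent gene pairs, lay within 1 kb of 389 peaks, or 14.8% (95% interval 13.5 to 16.2). The share was 11.3% (10.5 to 12.2) in young-only short promoter peaks and 11.8% (10.6 to 13.1) in aged-only promoter peaks, and its interval was 15.8% to 20.4% in peaks of long regions. With noncoding start sites included, the shares were 26.7% (25.1 to 28.5), 24.6% (23.4 to 25.8) and 24.8% (23.1 to 26.6), in that order, with overlapping intervals, and 32.6% (29.8 to 35.4) in peaks of long regions. Examples among the peaks ranked highest were the pair of Klhl18 and Kif9 and the pair of Cript and Pigf. In all, 2223 peaks lay near a single coding gene, 402 near 2 and 8 near 3 or more.

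H3K27me3, the mark of Polycomb repressive complex 2, overlapped 69 peaks in young HSCs, or 2.62% (95% interval 2.08 to 3.30), compared with 6.91% (6.25 to 7.63) of young-only short promoter peaks, 5.48% (4.64 to 6.46) of aged-only promoter peaks and 4.47% (3.38 to 5.87) of promoter peaks of long regions. In the aged list H3K27me3 overlapped 24 peaks, or 0.912% (0.613 to 1.35), against 2.34% (1.96 to 2.79) of the young-only peaks and 2.33% (1.58 to 3.41) of peaks of long regions, and the interval of aged-only peaks was 1.69% to 2.87%. H2AK119ub1, the mark of Polycomb repressive complex 1, overlapped 3 peaks in young HSCs (Prox1, Scarf2 and Igsf3) and 107 in aged HSCs, or 4.06% (3.37 to 4.89), compared with 5.82% (5.21 to 6.48) of young-only peaks, 5.52% (4.68 to 6.51) of aged-only peaks and 5.77% (4.52 to 7.32) of peaks of long regions. The interval of the shared peaks overlapped the last 2 of these. The lists of these marks themselves differed in length, with more H3K27me3 regions in the young list and more H2AK119ub1 regions in the aged list, and their part in the counts was not tested. No Polycomb region overlapped 2485 peaks (94.4%). At a −log10 q of at least 4 in every list, the share with young H3K27me3 was 0.0731% and that with aged H2AK119ub1 was 0.

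**Figure D4:**
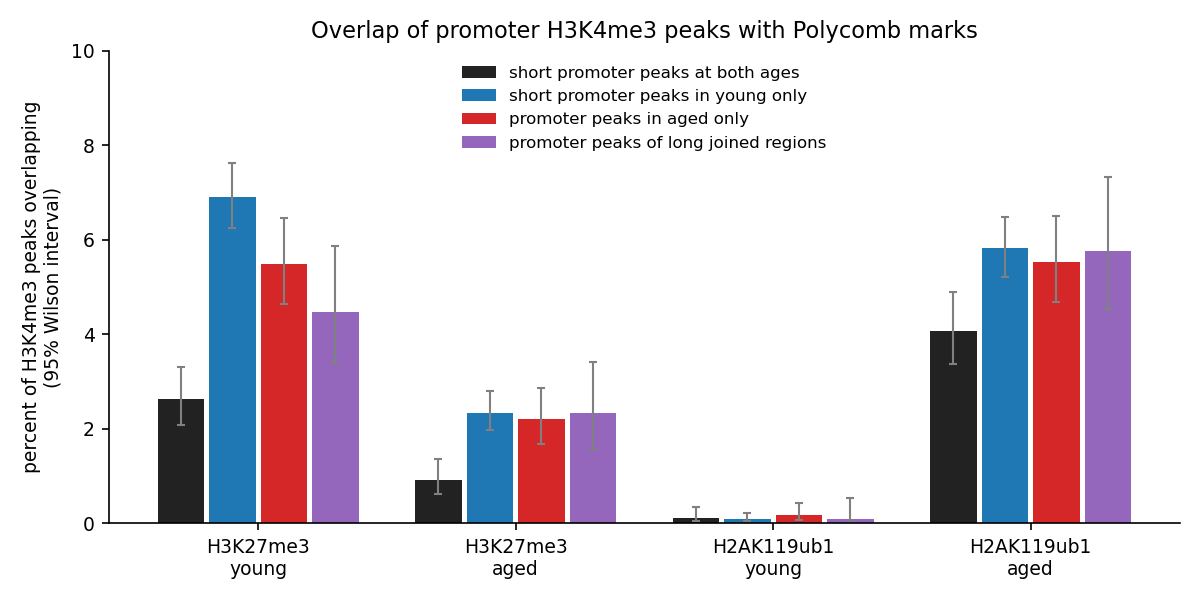
Share of promoter H3K4me3 peaks (y axis, percent) that overlapped H3K27me3 or H2AK119ub1 regions of each age, for short promoter peaks at both ages (black), those only in young (blue), promoter peaks only in aged (red) and promoter peaks of long regions (purple), with Wilson 95% intervals. The black bar for young H3K27me3 stands at 2.62% and its interval lies below those of the other 3 classes.

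The 22 peaks with H3K27me3 at both ages, ranked by young −log10 q, were led by Hey2, a repressor in the Notch pathway (fold 5.31 in young and 4.42 in aged HSCs), Chrm2, a muscarinic acetylcholine receptor (5.31 and 3.83), Brinp3 (4.64 and 4.20), Gm11549 (4.64 and 4.64) and Tfap2a, a transcription factor of neural crest and epidermis (4.46 and 3.65). Others included Eomes, Ebf1 and Prox1, which are transcription factors, and the Wnt ligand Wnt16 and its antagonist Frzb. The 69 peaks with young H3K27me3 had a median young fold of 4.04 (95% interval 3.83 to 4.25) and a median ratio of aged to young fold of 1.00 (0.909 to 1.10), close to the 4.23 (4.23 to 4.25) and 1.03 (1.00 to 1.04) of peaks without a Polycomb region. Only 1 of the 69 lay at a promoter with coding start sites on both strands, compared with 383 of 2485 peaks without a Polycomb region. Of the 107 peaks with aged H2AK119ub1, 76 had no H3K27me3 at either age, among them peaks at Becn1, Jag1, Smad7 and Irf2.

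A short promoter peak at both ages was found at 2748 of 20720 autosomal protein-coding genes (13.3%), of which 2451 had 1 such peak, 288 had 2 and 9 had 3. A promoter peak at both ages that did not meet the rule was found at a further 1079 genes, a promoter peak only in the young list at 3510, only in the aged list at 1246 and in neither list at 12149. These classes overlap at 12 genes, where the aged peak reached the shared short peak but not the 1 kb around the start site, so that they also count as genes with a peak only in the young list. Against this background of 13.3%, 14 of 33 gene lists had a share whose 95% interval lay above it and 4 had a share below it. The comparison was also made among genes with a peak. Of the 7325 genes with a young promoter peak of any kind, 37.5% had a short peak at both ages, and against that share the interval of 1 list lay above and those of 3 lists lay below.

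Genes of protein synthesis and turnover were among the lists with larger shares of all their genes. Among their genes with a young promoter peak, the interval of each list included the 37.5% of all such genes. The shares were then 44.2% (31.6 to 57.7) for cytosolic ribosomal proteins, 48.3% (31.4 to 65.6) for aminoacyl-tRNA synthetases and 46.4% (29.5 to 64.2) for proteasome subunits. Of 79 cytosolic ribosomal proteins, 23 (29.1%, 95% interval 20.3 to 39.9) had a short promoter peak at both ages, with the highest young −log10 q at Rpl34 (fold 6.05 in young and 4.42 in aged HSCs), Rpl23a (6.16 and 3.54), Rpl7 (5.65 and 4.42) and Rpl8 (5.74 and 3.83). Their 23 peaks had median folds of 4.44 and 4.42, near the 4.23 and 4.20 of all 2633 peaks, and no gene of the list lay in a long region. The shares were 37.8% (24.1 to 53.9) of 37 aminoacyl-tRNA synthetases, which charge tRNAs with amino acids, 30.8% (19.9 to 44.3) of 52 translation initiation factors and 34.2% (21.2 to 50.1) of 38 proteasome subunits. Examples were Lars2 (5.31 and 4.86), Eif4a3 (5.74 and 4.42), Eif3l (5.53 and 4.20), Psmb8, a subunit of the immunoproteasome (6.59 and 4.86), and Psmd4 (5.74 and 5.31). Of 85 chaperonins and heat shock proteins, 18 (21.2%, 13.8 to 31.0) had such a peak, including Hspbp1 (5.74 and 4.79) and Cct7 (5.20 and 4.20).

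Genes of the mitochondrion showed a similar picture. Among genes with a young promoter peak, the share was 44.8% (32.7 to 57.5) for the respiratory chain and ATP synthase. It was 35.4% (23.4 to 49.6) for mitochondrial ribosomal proteins and 40.0% (19.8 to 64.3) for mitochondrial import, and all 3 intervals included the 37.5% of all such genes. Of 81 genes of the respiratory chain and ATP synthase, 26 (32.1%, 22.9 to 42.9) had a short promoter peak at both ages, including Ndufa5 (5.72 and 3.75) and Ndufb10 (5.31 and 4.20) of complex I and Atp5g1 of the ATP synthase (4.32 and 5.08). The share was 21.8% (14.1 to 32.2) of 78 mitochondrial ribosomal proteins, led by Mrpl55 (6.16 and 2.58) in the young ranking although 12 of the 19 peaks of the list had a higher fold in the aged list (median ratio 1.10), and 26.1% (12.6 to 46.5) of 23 genes of mitochondrial import.

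Genes of transcription and splicing had shares of 30.8% (21.6 to 41.7; 24 of 78 genes of RNA polymerase II, general factors and Mediator) and 36.2% (25.0 to 49.1; 21 of 58 spliceosome and SR protein genes). Among their genes with a young promoter peak, the shares were 47.1% (34.1 to 60.5) and 44.7% (31.4 to 58.8). Both intervals included the 37.5% of all such genes. Taf12, a subunit of TFIID, had a fold of 5.65 in young and 4.18 in aged HSCs, Med7 of the Mediator had 5.12 and 3.76, Lsm8 had 6.05 and 4.00, and Sf3b1, a splicing factor that is mutated in clonal hematopoiesis, had 6.16 and 4.86. These examples were ranked by their young values. Over all 23 peaks of the spliceosome list the median folds were 4.03 in young and 4.42 in aged HSCs, and the fold was higher in the aged list at 13 peaks and lower at 10. The C2H2 zinc finger genes named Zfp, a family of DNA-binding proteins, had 70 of 383 (18.3%, 14.7 to 22.5), led by Zfp763 (6.38 and 4.64). Among Zfp genes with a young promoter peak, the share was 40.5% (33.4 to 47.9).

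Autophagy genes, whose products deliver cell content to lysosomes, had the largest share of the 33 lists, with 13 of 28 (46.4%, 29.5 to 64.2). They were also the only list whose share among genes with a young promoter peak (13 of 19, 68.4%, 46.0 to 84.6) lay above that of all genes. The genes were Atg12, Atg2a, Atg4c, Atg5, Atg9a, Becn1, Gabarap, Gabarapl2, Sqstm1, Ulk1, Ulk2, Wipi1 and Wipi2. Wipi1, which binds the forming autophagosome, had a fold of 5.04 in young and 5.31 in aged HSCs, Atg12, a ubiquitin-like modifier, had 4.89 and 4.20, and Atg2a, a lipid transfer protein, had 4.64 and 4.86. Sqstm1, the cargo receptor p62, had 4.68 and 3.83. Across the 13 peaks the median folds were 4.46 and 4.64, and the fold was higher in the aged list at 8 and lower at 5.

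Among cell cycle genes the intervals of the lists overlapped. Of 23 cyclins and CDKs, 10 (43.5%, 25.6 to 63.2) had a short promoter peak at both ages, led by Ccnc (6.80 and 3.68), Cdk7 (4.84 and 4.20) and Cdk9 (4.89 and 2.58), whose products act in transcription as well, and by Ccnh (4.64 and 4.86), the partner of Cdk7. The share is therefore not one of the cell cycle alone. Others with one were Ccnb2, Ccnd1, Ccnk, Ccnt2, Cdk2 and Cdk5. Ccna2 and Cdk12 had promoter peaks at both ages outside the rule. Ccnb1, Ccnd2, Ccnd3, Ccne2, Ccnt1 and Cdk1 had a promoter peak only in the young list, and Ccne1, Cdk4, Cdk6, Cdk8 and Cdk13 had none. Of 41 genes of replication licensing and DNA repair, 8 (19.5%, 10.2 to 34.0) had one, including the checkpoint kinases Chek1 (4.04 and 4.20) and Chek2 (4.48 and 4.35, at a summit nearer to Hscb). Of 7 CDK inhibitors, 1 had one (14.3%, 2.57 to 51.3), Cdkn2c (3.83 and 4.42).

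Of the HSC transcription factors, 2 of 28 autosomal genes (7.14%, 1.98 to 22.7) had a short promoter peak at both ages, Myb (4.46 and 4.59) and Mecom (4.27 and 4.64), although a further 14 had promoter peaks at both ages outside the rule. This count depended on the rule, and was 13 without the limit on joined regions, 8 when young peaks were joined within 500 bp, 6 with lists of the same length, 5 at a −log10 q of at least 4, 4 with start sites within 2.5 kb, and 1 with the limit at 1000 bp or with an overlap of at least 50%. Long regions were present at 13 of the 28 (46.4%, 29.5 to 64.2), among them Erg, Etv6, Fli1, Hlf, Ikzf1, Ikzf2, Lyl1, Mecom, Meis1, Nfe2, Runx1 and Tal1, compared with 2.67% of all genes. Among genes with a young promoter peak, the share with a short peak at both ages was 10.0% (2.79 to 30.1; 2 of 20). AP-1 and immediate early genes, which respond to stimulation, had a similar pattern, with short peaks at both ages at Ier3 and Jun of 20 genes and long regions at 6 (30.0%, 14.5 to 51.9; Atf3, Egr2, Fosb, Ier2, Klf6 and Myc). Region length was part of the rule, so a gene in a long region had less occasion to hold a short peak.

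**Figure D5:**
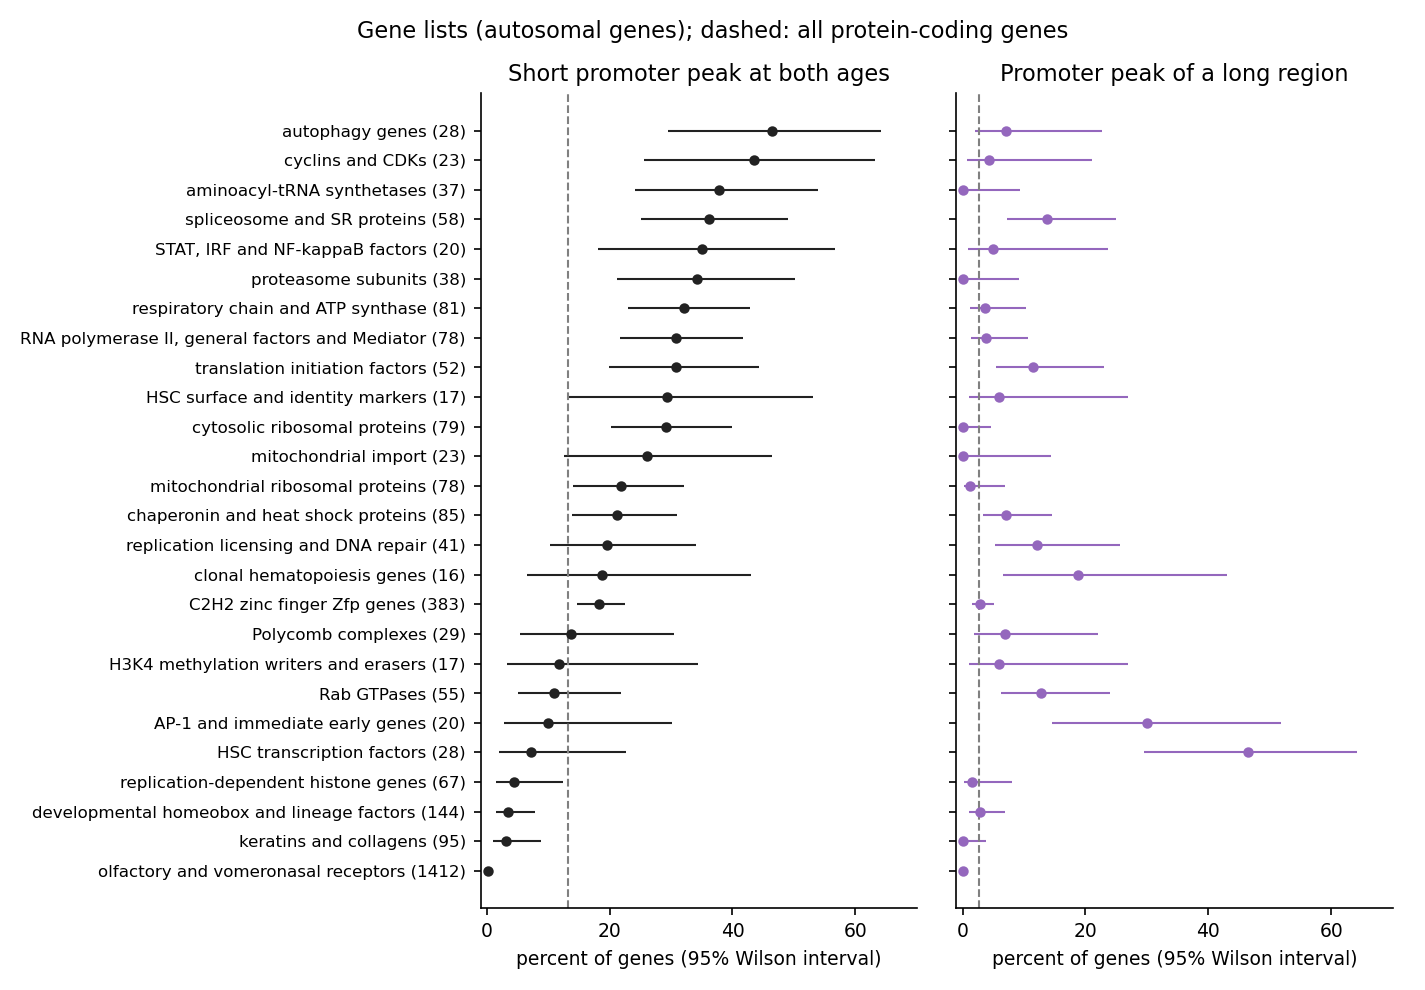
Share of autosomal genes (x axis, percent, Wilson 95% intervals) with a short promoter H3K4me3 peak at both ages (left) and with a promoter peak of a long region (right) for the 26 lists of at least 16 genes, whose sizes stand in parentheses. Dashed lines give all protein-coding genes (13.3% and 2.67%). Autophagy genes are highest on the left with 46.4%, and HSC transcription factors are highest on the right with 46.4%.

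Regulators of interferon and cytokine signalling had short promoter peaks at both ages at 7 of 20 STAT, IRF and NF-kappaB genes (35.0%, 18.1 to 56.7). Among them were Irf2 (4.68 and 3.98), Irf3 (4.04 and 6.41, at a summit nearer to Bcl2l12), Irf9 (5.31 and 3.41), Rel, Stat4 and Stat5b (4.17 and 3.65). The aged peak of Irf2 ended at the base where the young peak began, so the overlap was the minimum of 1 bp. The 2 folds of Irf2 were therefore read at different positions. The count of 7 was 5 with an overlap of at least 50% and 4 at a −log10 q of at least 4. It was 8 without the limit on joined regions. Of 16 genes of clonal hematopoiesis, 3 had a short promoter peak at both ages (18.8%, 6.59 to 43.0), Sf3b1, Idh1 (4.84 and 5.75 for its stronger peak) and Tet2 (2.80 and 4.35). Of 10 sirtuins and FOXO factors, which are studied in ageing, 3 had one (30.0%, 10.8 to 60.3). They were Foxo1 (4.64 and 4.38), Sirt2 (3.17 and 5.22, at a summit nearer to Nfkbib) and Sirt3 (4.46 and 4.60, nearer to Psmd13). The intervals of both lists included the 13.3% of all genes. Among the chromatin regulators, 2 of 17 writers and erasers of H3K4 methylation (Kmt2b and Ash2l) and 4 of 29 genes of the Polycomb complexes (Mtf2, Pcgf3, Phc1 and Phc2) had one, shares of 11.8% (3.29 to 34.3) and 13.8% (5.50 to 30.6). Of 55 Rab GTPases, which direct vesicle traffic, 6 had one (10.9%, 5.10 to 21.8). Among Rab genes with a young promoter peak the share was 18.75% (8.89 to 35.3), below the 37.5% of all such genes. Long regions were present at 12.7% (6.30 to 24.0) of the Rab genes, compared with 2.67% of all genes. The Rab count was 12 without the limit on joined regions and 10 when young peaks were joined within 500 bp.

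Besides the 4 marker lists in which no gene had a short promoter peak at both ages, 4 lists had an interval below the share of all genes. Few of their genes had any young promoter peak: 0.142% of olfactory and vomeronasal receptors, 10.5% of keratins and collagens, 17.9% of histone genes and 29.2% of developmental factors, against 35.4% of all genes. Among genes with a young promoter peak, only the developmental factors stayed below the 37.5% of all such genes (11.9%, 5.19 to 25.0). The intervals of the other 3 lists included it (34.2 to 100, 10.8 to 60.3 and 8.89 to 53.2, in that order). Of 1412 olfactory and vomeronasal receptors, 2 had a short promoter peak at both ages (0.142%, 0.0389 to 0.515), Olfr56 and Vmn1r4. The peak of Vmn1r4 lay nearer to a start site of Nt5c3, and that of Olfr56 also lay within 1 kb of a start site of Ifi47. Neither peak can be assigned to the receptor gene alone. Of 95 keratins and collagens there were 3 (3.16%, 1.08 to 8.88), Col8a1, Col25a1 and Col14a1, all of which overlapped H3K27me3 in young HSCs. Of 144 developmental homeobox and lineage factors there were 5 (3.47%, 1.49 to 7.87), namely Gata3, Hoxa3, Six5, Tbx1 and Tbx3. Of 67 replication-dependent histone genes there were 3 (4.48%, 1.53 to 12.4), and 12 had a young promoter peak of any kind. Reads of near-identical gene copies may be split or lost in alignment, which was not tested here.

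The share of genes with a short promoter peak at both ages ranged over the chromosomes from 9.86% (95% interval 8.63 to 11.2) of 2009 genes on chromosome 7 to 15.9% on chromosomes 12, 13 and 16, such as 105 of 661 genes on chromosome 16.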

How the data were processed

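Peak lists of ChIP-seq in young and aged HSCs were analysed, 1 pooled list for each of 3 marks and 2 ages. The authors fragmented cross-linked chromatin by sonication and micrococcal nuclease digestion, and aligned the reads to mm10. The submitters' processing notes name Bowtie2 and MACS2 2.2.6, but the caller is not named where the study describes its ChIP-seq. The deposited fold enrichment is a linear ratio of reads to local background at the summit (averaged over the region in the broad lists of H3K27me3 and H2AK119ub1), and the deposited −log10 p-values and −log10 q-values are those of the caller. In the broad lists the names of the regions bear only 1 number each, so it is uncertain whether both replicates entered. Micrococcal nuclease cuts between nucleosomes, which can sharpen and split peaks at promoters, and in a pooled list a peak may rest mainly on 1 library.

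Promoters were taken from GENCODE M21 (basic set). Overlaps and intervals were obtained with scipy 1.17.1, pandas 2.3.3 and numpy 2.4.6 (Python 3.11.15), and the same 2633 peaks were found with bedtools 2.31.1. Reads and background at each summit were recovered from the fold and p-value, with 1 added to each in the fold. On simulated data the code gave 100% of 2992 peaks their true class and recovered 100% of 2000 pileups. Bases were read from mm10 with pysam 0.24.0 (samtools 1.23.1), and plots were drawn with matplotlib 3.10.9. Shares have Wilson 95% intervals, medians have order-statistic intervals and reads have exact Poisson intervals.

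The peaks and the gene lists were chosen with earlier results of these data known, so no list is independent evidence. Peaks were named by rule: the 10 highest by −log10 q in each list, the 5 highest and 5 lowest ratios, the 5 highest with H3K27me3 at both ages, 3 on each side of the 1500 bp limit, and up to 4 per gene list by young −log10 q. Further genes are named where a count is listed. The alternatives concerned the promoter distance, region limit, joining distance, overlap, threshold, list length, annotation and window.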

Additional observations from a re-analysis of the deposited data

Results flagged for a closer look

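The rule left out the sex chromosomes. In these data, which the comparisons above did not use, 7 short promoter H3K4me3 peaks on chromosome X were present at both ages, and none on chromosome Y. They lay at Ddx3x, Eif2s3x, Kdm5c, Piga, Rab9, Stag2 and Tbc1d25, which are 7 of 1131 protein-coding genes of the X and Y chromosomes (0.619%), compared with 13.3% of autosomal genes. Their median young fold enrichment was 4.04. They were singled out because they are signal outside the regions analysed. The mice were female, so no peak could come from chromosome Y, although its genes are counted among the 1131. Of the 11377 young H3K4me3 peaks of any kind, 11279 lay on chromosomes 1 to 19. The scarcity of peaks on the sex chromosomes was therefore shared by the whole young list.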

How the results depend on the processing

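No paired analysis was possible because the peaks were deposited as 1 pooled list per mark and age, and for the same reason no replicate could be left out. Over 10 alternatives, 77 recomputed values stayed within the interval of the reported value or, for counts, within 1.5 times of it, and 13 did not. The number of peaks ranged from 1368 to 3046. A −log10 q of at least 4 in all lists gave 1368 peaks at 1530 genes, a median young fold of 4.47, start sites on both strands in 17.8%, young H3K27me3 in 0.0731% and aged H2AK119ub1 in 0%. H3K4me3 lists of the same length were obtained by keeping the young peaks with the highest −log10 q, which is a choice by young values. With these lists, the median young fold was 4.48 and the median ratio of aged to young fold was 0.936, below 1. The CpG ratio was 0.664 with start sites within 500 bp. A limit on joined regions of 1000 bp gave start sites on both strands in 11.7% and a downstream summit in 77.0%, and the full annotation gave the latter in 73.6%. An overlap of at least 50% of the shorter peak gave aged H2AK119ub1 in 2.31%. The causes of these shifts were not tested. The number of gene lists above the share of all genes ranged from 11 to 18, and 218 recomputed list counts stayed within 1.5 times of the reported count while 46 did not. The lists hold no library depth, about 20 reads stand under a typical summit, and peaks below the caller's threshold are not listed, so a peak found in 1 list only is not shown to be absent at the other age.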
